A study of Mus musculus with 68 samples.

Results

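Apical progenitors (APs) of the mouse cerebral wall were compared between embryonic day 12 (E12) and E11, with 1 single-cell array per cell. The members were 3 E12 APs, cell_103L, cell_105M and cell_109B, and 23 E11 APs, together 26 of the 68 arrays of the series. All cells came from CD1 mice, from trypsin-dissociated dorso-lateral cerebral wall, and were picked by hand one at a time. The E12 cells were labelled as APs and had been selected by quantitative PCR (qPCR) as Ki67+/Ttyh1+/Sox2+/Pax6+/Tbr2-, so these 5 genes are no finding here. The E11 labels give the stage alone. The study chose its 30 E11 cells by qPCR of marker genes and classed E11 cells by clustering of their array values. By a list of titles, which do not themselves state a type, 3 neurons, 3 intermediate progenitors (IPs) and 1 cell of low quality were set aside. The remaining 23 were taken as APs. Marker levels in the E11 cells are therefore no independent evidence of their type. The other arrays were 4 E14 APs electroporated at E11 with pCAG-NICD and pEF-p18 (NICD/p18 APs), 3 APs from neurospheres (E11 cells kept 3 days in culture with FGF2 and EGF) and 28 E16 cells. No label names an embryo or litter, so each stage counts as 1 sample, no test of significance was made, and spreads are between cells.

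APs, also called radial glia, line the ventricle, divide there, and give rise to neurons directly or through IPs. The same lineage first makes deep-layer and later upper-layer neurons, and its own gene expression drifts as it does so. The comparison asks what has already changed 1 day after E11, before the E14 state is reached. The study defined 18 temporal-axis genes, 9 high at E11 and 9 high at E14, from arrays that include these E11 cells.

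All levels below are log2 values of the signal after quantile normalization of the 68 arrays, and differences are E12 minus E11 of the mean log2 level. Negative log2 levels are signals under 1. A spiked RNA at 20 copies per cell had a median signal of 842 over the arrays, or 9.72 on the log2 scale. This level was used for every array, and a cell at or above it is called over the level. The spike itself had 290, 1571 and 929 in cell_103L, cell_105M and cell_109B, and 171 to 3898 in E11 APs. The level is thus a common cutoff and not 20 copies in each cell. Where the lower mean is under the level, the fold is taken against the level and written as at least. Each gene is read from 1 probe set, its brightest. A gene is called when its means differ at least 4-fold and the higher mean reaches the level. The deposited signals of the E12 arrays had been scaled to a trimmed mean of 499.8 in each, as in the NICD/p18 and neurosphere arrays, against 67.4 to 297 in the E11 APs. Signals under 1 made up 1.43 to 2.28% of the E12 arrays and 6.75 to 23.4% of the E11 arrays. This difference in the deposited processing and the difference in stage cannot be told apart. No 2 of the 26 arrays held identical values.

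Some markers of APs were over the level in most cells of both stages, though marker genes had been used to choose the cells. Sox2, a factor of neural stem cells, was over the level in 3 of 3 E12 and 23 of 23 E11 APs. Pax6, a cortical progenitor factor, was over it in 3 of 3 and 17 of 23. Both had been used to select the E12 cells. Over 22 AP genes, on average 68.2% of E12 and 48.4% of E11 cells were over the level. Of these genes, 4 were over it in no E12 cell. Markers of blood, microglia, endothelium, mesenchyme and the oligodendrocyte lineage were over the level in 0 E12 cells. Some single cells stood apart. In cell_103L the IP gene Eomes (Tbr2) had 11.75 on its brighter probe set, against at most 8.57 in E11 APs and at least 13.23 in E11 IPs, but 0.88 on its other probe set, where E11 IPs had at least 11.82. In cell_105M the neuronal factors Neurod6 and Tbr1 had 10.01 and 9.97, against at most 3.38 and 4.07 in E11 APs. The neuronal intermediate filament gene Nefl had 10.24 in cell_103L and at most 3.99 in E11 APs. Over the whole lists, 2 to 4 of 20 IP genes and 2 to 5 of 18 neuron genes were over the level in an E12 AP, against 0 to 8 and 0 to 5 in an E11 AP. Summed signals were 7446 to 10883 (E12) and 1461 to 42920 (E11) for the IP list, and 3181 to 9544 (E12) and 1809 to 15039 (E11) for the neuron list. The E11 cell 42P held globin RNA, with Hbb-bh1 at 13.85 against at most 5.57 in the other 22 E11 APs. The part of these signals in the results was not tested, beyond the counts without single cells given below.

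Of 10789 genes, 370 were called higher in E12 APs (3.43%) and 81 were called lower (0.751%). The median difference over all genes was 0.07. In 367 of the 370 and in 79 of the 81 the lower mean was under the 20-copy level, so most calls mark genes whose mean passed that level in one stage alone. When every signal under the level was first set to it, 2 genes were called higher and 0 lower. Those 2 were Ptn and Aldoc. With 2 E12 cells in place of 3 the calls numbered 597 and 90 without cell_103L, 610 and 117 without cell_105M, and 588 and 100 without cell_109B. Without the globin-bearing E11 cell they were 371 and 88. All 3 E12 cells lay on the called side of the E11 median for 307 of the genes called higher and 50 of those called lower. By the same rule against the same E11 cells, the NICD/p18 APs had 431 higher and 433 lower and the neurosphere APs had 427 and 142.

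**Figure D1:**
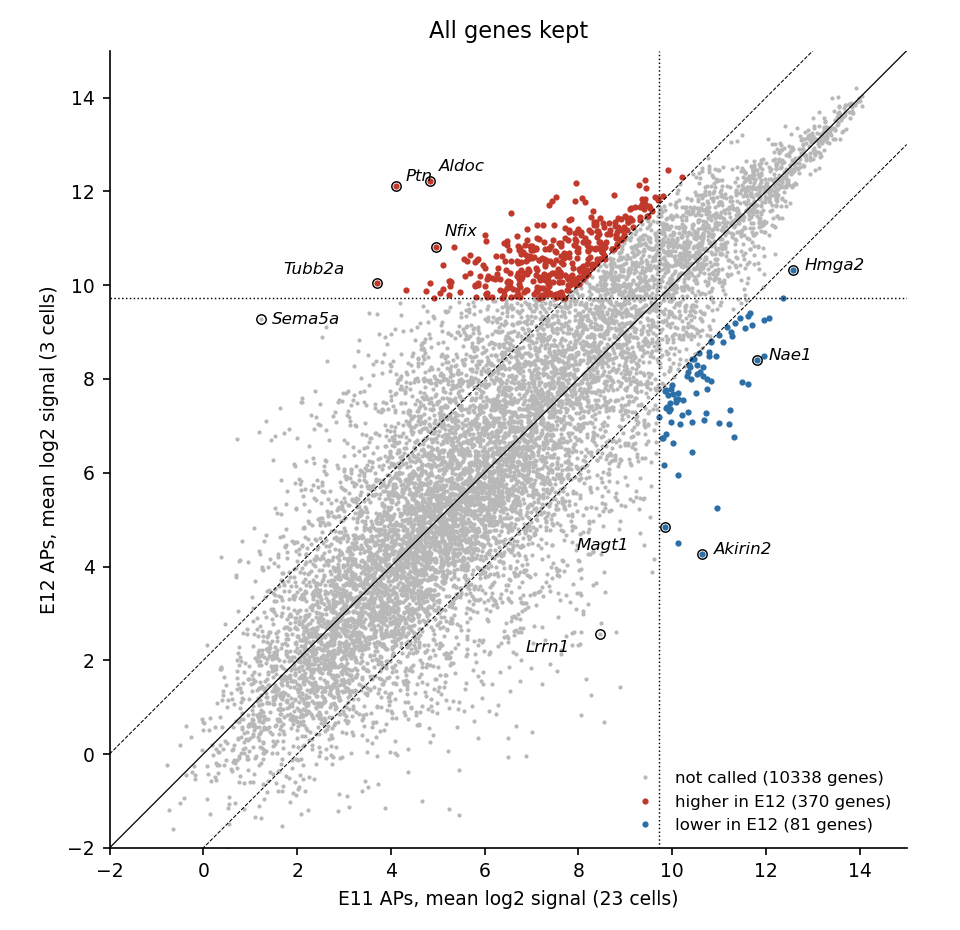
Mean log2 level of each of 10789 genes in 3 E12 APs and in 23 E11 APs, with called genes coloured, dashed lines at 4-fold, dotted lines at the 20-copy level and some genes circled. The 370 genes called higher and the 81 called lower lie outside the dashed lines, and Ptn and Aldoc have the highest E12 means among the circled genes.

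Ptn, which encodes pleiotrophin, a secreted heparin-binding growth factor, had the largest difference among the genes called. Its log2 level was 11.18 in cell_103L, 12.25 in cell_105M and 12.91 in cell_109B. In E11 APs the lowest was -2.34, the median 2.58 and the highest 11.96. All E12 cells were over the level, as were 5 of 23 E11 cells, so the stages overlapped at the top of the E11 range. The difference was 8.01, or at least 5.27-fold. Its other probe sets differed by 5.05 and 0.15 in the same direction, with both means under the level, so the call rests on the brightest probe set. Ptn averaged 13.54 in NICD/p18 APs and 12.94 in neurosphere APs, and 27 of 28 E16 cells were over the level.

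Aldoc, which encodes aldolase C, a glycolytic enzyme later typical of astroglia, set the stages apart without overlap. Its log2 level was 12.03, 12.93 and 11.72 in cell_103L, cell_105M and cell_109B. The lowest, median and highest E11 AP had 0.88, 4.76 and 10.06, and 1 of 23 was over the level. The difference was 7.40, or at least 5.69-fold. A second Aldoc probe set did not share this direction, so the call rests on the brighter probe set.

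The sequences just before the RefSeq start sites of Ptn, Aldoc and Lrrn1 (GRCm38.p6) are shown because the first 2 were the genes whose calls survived the floor at the 20-copy level, and Lrrn1 had the largest difference downward among the temporal-axis genes. Capitals mark TTGGC, the half-site of nuclear factor I (NFI) proteins, or GCCAA, its other strand. The 250 bases lie at chr6:36810180-36810429 (minus strand) for Ptn, chr11:78322823-78323072 (plus strand) for the first of 2 Aldoc starts, and chr6:107529476-107529725 (plus strand) for Lrrn1.
Ptn: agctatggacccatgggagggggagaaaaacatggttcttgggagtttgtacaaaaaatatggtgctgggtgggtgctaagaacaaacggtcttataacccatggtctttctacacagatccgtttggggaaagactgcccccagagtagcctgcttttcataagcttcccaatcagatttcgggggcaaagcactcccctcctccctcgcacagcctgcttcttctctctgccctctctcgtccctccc
Aldoc: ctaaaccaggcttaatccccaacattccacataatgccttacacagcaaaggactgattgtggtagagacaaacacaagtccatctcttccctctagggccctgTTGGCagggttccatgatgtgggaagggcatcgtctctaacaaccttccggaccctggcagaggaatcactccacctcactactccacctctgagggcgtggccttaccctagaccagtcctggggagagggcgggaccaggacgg
Lrrn1: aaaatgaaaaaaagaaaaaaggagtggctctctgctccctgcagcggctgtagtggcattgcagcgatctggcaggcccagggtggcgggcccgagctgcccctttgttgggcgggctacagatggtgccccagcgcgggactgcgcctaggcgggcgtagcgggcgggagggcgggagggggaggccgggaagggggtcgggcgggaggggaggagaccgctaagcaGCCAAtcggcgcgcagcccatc
Aldoc held 1 half-site, 146 bases before the start, Lrrn1 held 1, 22 bases before it, and Ptn held none in this window. The half-site, searched on both strands, was present in 41.9% of 27025 RefSeq promoter windows of this length, in 45.9% of the 8822 matched to the 10789 genes compared, in 44.4% of the 302 windows matched to genes called higher and in 51.7% of the 60 matched to genes called lower. A match describes letters and is no evidence of binding.

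The late temporal-axis genes were mostly higher in E12 APs. Of the 9 genes high at E14, 8 had the higher mean in E12 APs, with a median difference of 5.31 against 0.07 over all genes, and Ptn and Aldoc were called. Averaged over the 9 genes, 40.7% of E12 cells and 3.86% of E11 cells were over the level. The study chose these genes with the same E11 cells, so their low E11 levels are not independent evidence. Sema5a, which encodes an axon-guidance semaphorin, had 9.61, 8.28 and 9.95 in cell_103L, cell_105M and cell_109B, against a lowest, median and highest of -1.91, 0.87 and 7.97 in E11 APs. These ranges did not overlap, and its difference of 8.06 was the largest upward of all genes, but the E12 mean of 9.28 was under the level and Sema5a was not called. Its mean was 1.09 in NICD/p18 APs and 2.14 in neurosphere APs, and 1 of 28 E16 cells was over the level.

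Several late genes were split among the 3 E12 cells. Ednrb, the endothelin B receptor gene, had 1.04 in cell_103L, 10.33 in cell_105M and 9.19 in cell_109B, and a lowest, median and highest of -1.22, 1.25 and 10.49 in E11 APs. Epha5, an ephrin receptor gene, had 3.10, 9.87 and 10.24, against -1.50, 2.17 and 9.42, and had the higher E12 mean on 2 of its 4 probe sets. In both genes cell_103L lay near the E11 median while cell_105M and cell_109B lay near or above its top. Rlbp1, a retinoid-binding protein gene of glia, had 7.10, 10.98 and 7.71 in the E12 cells, against -1.62, 3.43 and 10.43, and 22 of 23 E11 cells lay below the lowest E12 cell. Pag1, an adaptor of Src-family kinase signalling, was near the level only in cell_105M, with 1.30, 9.23 and 3.07 against -1.93, 0.82 and 4.88. The transcription factor gene Zbtb20 had 1.85, 4.23 and 5.31, against 1.29, 3.89 and 6.07. Adgrb3, an adhesion G protein-coupled receptor gene, had -1.36, 2.24 and 0.03, against -2.0, 1.02 and 9.06. Neither Zbtb20 nor Adgrb3 was over the level in any cell of the 2 stages.

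The early temporal-axis genes were lower on average but still present in part of the E12 cells. All 9 had the lower mean in E12 APs, with a median difference of -2.42, and Tubb3 was called lower. Averaged over the genes, 29.6% of E12 cells and 53.6% of E11 cells were over the level. Lrrn1, a leucine-rich repeat membrane protein gene, had 10.13 in cell_103L but -0.71 in cell_105M and -1.71 in cell_109B. Its lowest, median and highest E11 levels were 0.13, 10.12 and 11.96, and the difference was -5.90. So cell_103L sat at the E11 median for Lrrn1 while both other cells lay below every E11 AP. Sulf2, an enzyme that trims heparan sulfate, had 3.96, 4.46 and 2.54, against 1.32, 9.47 and 11.83, with no E12 cell over the level and 11 of 23 E11 cells over it. Crabp2, a retinoic acid carrier, had the highest mean of the early genes at E12. It had 10.08, 9.26 and 11.40 in the E12 cells, against 7.15, 12.34 and 13.22, and was 3.30-fold lower. Its means in NICD/p18 and neurosphere APs were 3.15 and 0.97.

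The doublesex-related factors Dmrt3 and Dmrta1, which act in early cortical patterning, differed from cell to cell. Dmrt3 had 4.82, 3.58 and 10.64 in cell_103L, cell_105M and cell_109B, against a lowest, median and highest of 4.06, 10.52 and 12.37 in E11 APs. Dmrta1 had 8.79, 2.09 and 6.55, against 2.80, 9.04 and 11.56. Thus cell_109B was at the E11 median for Dmrt3, cell_103L near it for Dmrta1, and cell_105M below every E11 AP for both. Fndc3c1 had 11.61, 1.42 and 10.24, against 1.90, 10.89 and 12.37, and the sulfotransferase gene Chst2 had 9.10, 0.42 and 10.79, against 0.67, 9.76 and 12.19. Flrt3, an adhesion molecule gene of FGF signalling, had 7.21, 0.20 and 7.80, against 0.42, 9.16 and 11.05. In all 3 genes cell_105M was below the whole E11 range and the other two E12 cells were inside it. Tubb3, a tubulin gene of young neurons, was instead low in cell_103L, with 3.41, 10.02 and 9.68 against 4.28, 10.36 and 12.44.

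**Figure D2:**
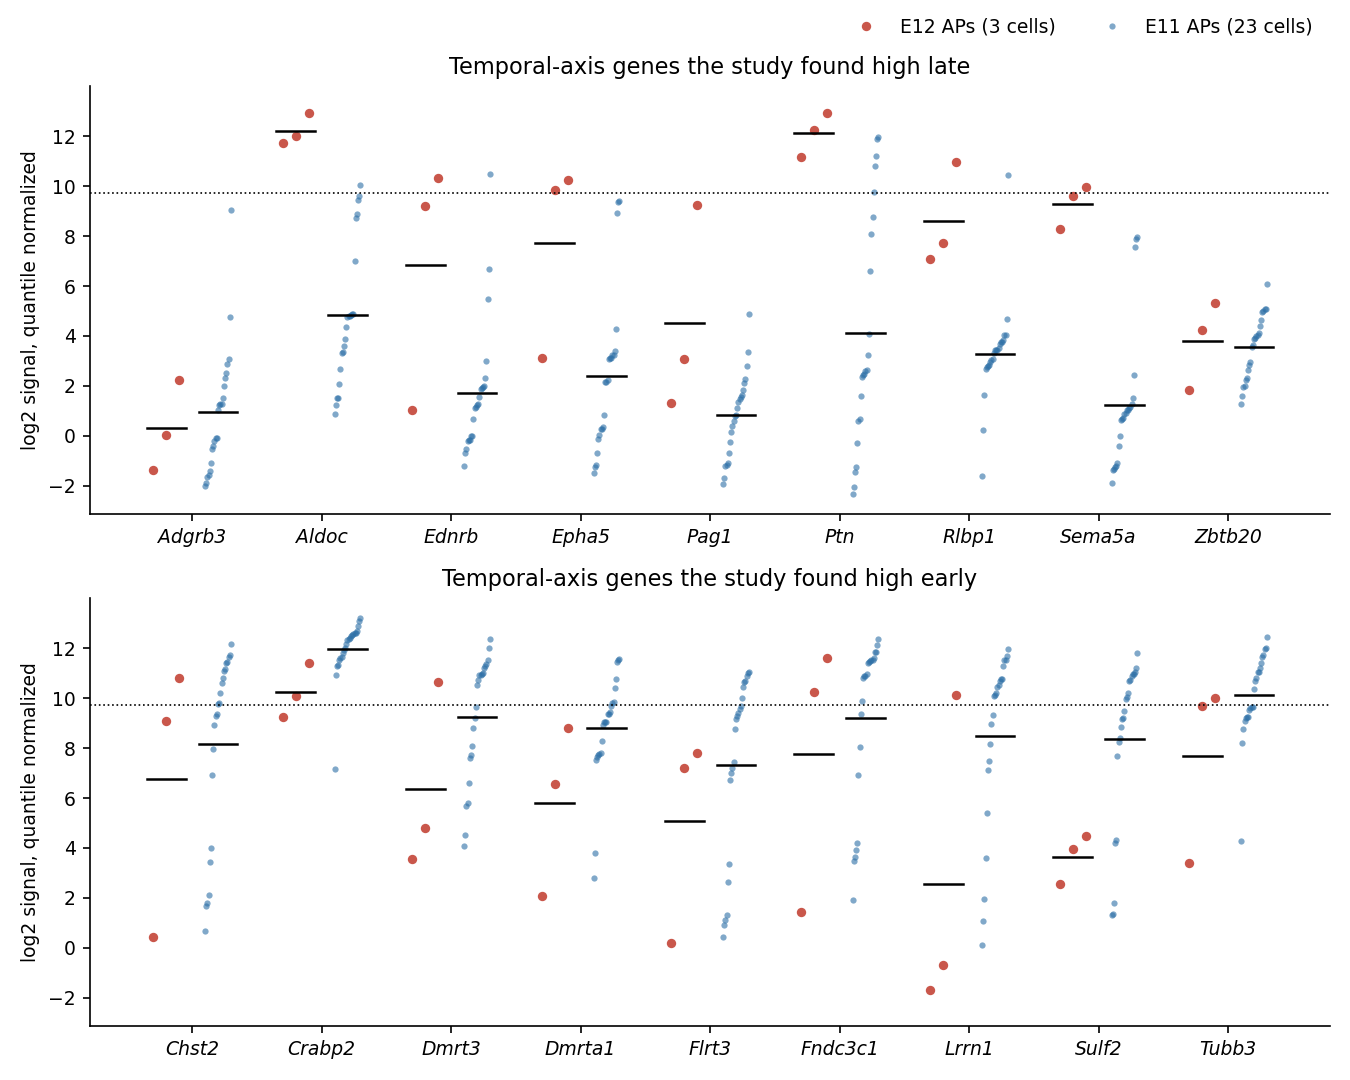
Log2 level of the 18 temporal-axis genes in 3 E12 APs, left of 23 E11 APs; each point is a cell, black bars are means and the dotted line is the 20-copy level. The E12 cells of Ptn and Aldoc lie above the line, while those of Ednrb, Epha5, Lrrn1, Dmrt3 and Fndc3c1 are split.

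A temporal score was taken as the mean of the 9 late genes minus the mean of the 9 early genes in each cell. It was -2.58 in cell_103L, 5.51 in cell_105M and 0.25 in cell_109B, against -9.0, -6.74 and -2.28 in the lowest, median and highest E11 AP. The mean was 1.06 ± 4.11 in E12 APs (SD, n = 3) and -6.54 ± 1.53 in E11 APs (SD, n = 23), a difference of 7.59. Thus cell_105M and cell_109B lay above all E11 APs and cell_103L lay above 22 of 23. The score of cell_103L came from late genes at 5.09 and early genes at 7.68, and that of cell_109B from 7.79 and 7.55, both with the late mean above and the early mean within the E11 range. Of the late genes only Ptn and Aldoc were over the level in cell_103L, and the E11 AP with the highest score, 30L, had 4.61 and 6.90. In cell_105M the late genes had 8.93 and the early genes 3.42. The score spanned 1.59 to 5.46 in neurosphere APs, 3.87 to 8.13 in NICD/p18 APs and 2.38 to 9.14 in E16 cells. With signals under the level set to it the difference was 1.18, and leaving out 1 E12 cell gave 9.42, 5.37 and 8.0 (without cell_103L, cell_105M and cell_109B). The cell with the highest score, cell_105M, was also the one with Neurod6 and Tbr1 over the level.

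**Figure D3:**
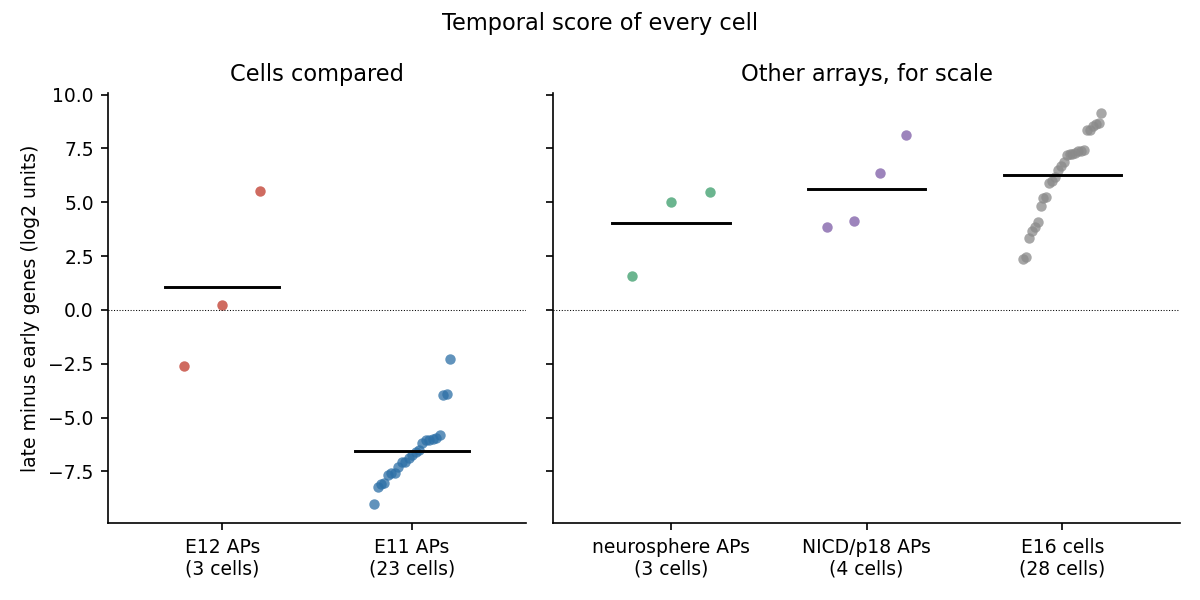
Temporal score, the mean log2 level of 9 late genes minus that of 9 early genes, in each cell of 5 groups; points are cells and black bars are means. The E12 cells lie at -2.58, 5.51 and 0.25, each above at least 22 of the 23 E11 APs. The cell at 5.51 lies among the NICD/p18 APs and just above the highest neurosphere AP, at 5.46.

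Longer lists from the study went the same way. These lists were chosen with the same E11 cells and are no independent evidence. Of 229 probe sets of the list higher at E14, 174 (76.0%) had the higher mean in E12 APs, against 51.4% of all 20721 probe sets. The median difference was 1.64, and 30 were called higher and 0 lower, against 2.62% and 0.55% of all probe sets. On average 23.6% of E12 cells, 9.78% of E11 cells and 40.3% of E16 cells were over the level, but the median over the probe sets was 0% in E12 and 4.35% in E11 APs, so the middle probe set of the list was over it in no E12 cell. Of 74 probe sets of the list higher at E11, 51 had the lower mean in E12 APs, the median was -1.44, and 8 were called lower and 1, of Sdc1, higher. The mean share over the level was 31.1% in E12, 51.0% in E11 and 14.3% in E16 cells. In the signals as deposited the early list's median was 0.11 while that of all genes was 1.78, and with signals under the level set to it the late list's median was 0.

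**Figure D4:**
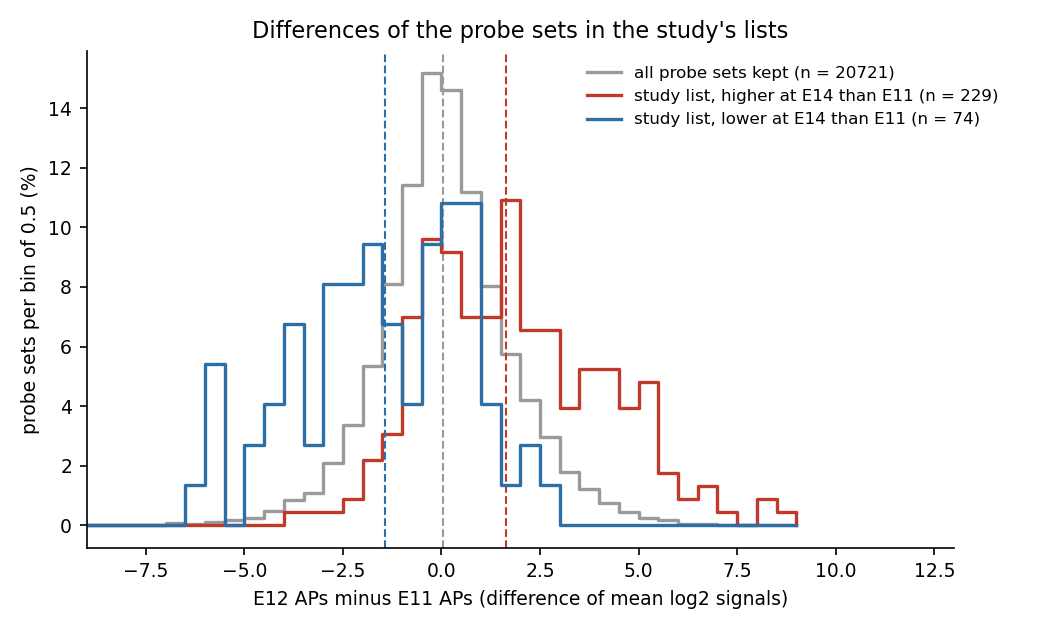
Differences in mean log2 level, E12 minus E11 APs, over the probe sets of the study's late and early lists and over all probe sets, as the percent of each list per bin of 0.5, with dashed lines at the medians. The late list, of 229 probe sets, has a median of 1.64 and the early list, of 74, a median of -1.44.

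Some genes of the late list that were called higher follow. Nfix, one of the NFI factors that promote glial maturation, had 10.99, 11.87 and 9.57 in cell_103L, cell_105M and cell_109B, against 0.31, 3.82 and 10.01 in the lowest, median and highest E11 AP. Its difference was 5.86, at least 2.13-fold, with 3 of 3 probe sets going the same way. Fgfr3, an FGF receptor of later radial glia, had 11.46, 11.60 and 12.29, against 0.84, 9.34 and 12.68, at least 4.19-fold higher. Fabp7 (brain lipid-binding protein), a classic radial glial gene, had 11.20, 11.02 and 11.25, against 0.18, 9.56 and 12.83, at least 2.71-fold higher. The 3 E12 levels of Fabp7 lay within a narrow band inside a wide E11 range, with 11 of 23 E11 cells over the level. App, the amyloid precursor gene, had 10.87, 10.50 and 10.54, against -0.11, 7.0 and 11.25, but a second App probe set went the other way. Tubb2a, a tubulin gene, had 9.44, 10.41 and 10.27, against -1.11, 1.41 and 10.84. Pantr1, a long noncoding RNA next to the gene of Pou3f3, had 10.16, 12.24 and 12.47, against 1.69, 9.74 and 11.76.

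Among genes of the early list, Hmga2, a chromatin protein that keeps young stem cells self-renewing, had 11.94, 7.38 and 11.63, against 9.67, 12.78 and 13.43. It was 4.78-fold lower, with cell_105M alone below every E11 AP. Bcl11a, a zinc-finger factor of cortical neurons, had a list probe set past the 4-fold rule at 7.82, 8.82 and 6.89, against 6.65, 10.73 and 12.21. On its brightest probe set it had 7.60, 8.10 and 11.69, against 0.70, 11.67 and 12.46, a difference of -1.65, and was not called. Gja1, the gap junction gene connexin 43, likewise had a list probe set past the rule at 6.92, 7.99 and 8.82, against 3.90, 10.77 and 11.75. Its brightest probe set had 11.04, 8.12 and 10.30, against 4.64, 11.25 and 12.72, a difference of -0.77 that was not called. Ildr2 had 1.13, 2.96 and 9.41, against 4.46, 10.51 and 12.14, and with a difference of -5.62 it was called lower.

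Among all genes called, those of the temporal lists included, 10 in each direction were taken in order of size among those whose mean in both NICD/p18 and neurosphere APs lay nearer to the E11 than to the E12 mean. In all, 160 genes called higher and 18 called lower met this with the 3 E12 cells on 1 side of the E11 median. Akap1, which tethers protein kinase A at mitochondria, had 11.39, 10.48 and 11.34, against 0.46, 4.81 and 11.37, and means of 7.65 and 7.21 in NICD/p18 and neurosphere APs. Lrwd1, a partner of the origin recognition complex, had 12.14, 10.57 and 11.87, against 0.87, 6.80 and 11.88. Its NICD/p18 mean of 8.93 lay almost midway between the E11 mean of 6.55 and the E12 mean of 11.53. Dgcr8, the RNA-binding partner of Drosha in microRNA processing, had 12.20, 10.14 and 10.47, against 0.86, 4.99 and 12.72. For these 3 genes the E12 cells filled the top of the E11 range, and 5 to 7 of 23 E11 cells were also over the level. Gpr137b, Ctdspl, Mdn1, Abitram, Zkscan8, Pde12 and Dipk1a completed the set, with differences of 4.79 to 5.48. Of the 3 Pde12 probe sets, 2 went the same way. Mycbp, Cmss1, Ddx41, Cbl and Tbc1d31 were also among the 15 largest, with differences of 4.90 to 5.57. A second Cbl probe set went the other way.

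Akirin2, a nuclear protein that bridges transcription factors and chromatin remodellers, was the gene called lower with the largest difference. It had 4.17, 1.58 and 7.07 in cell_103L, cell_105M and cell_109B, against 7.80, 10.70 and 12.52 in the lowest, median and highest E11 AP. The ranges did not overlap, 16 of 23 E11 cells were over the level, and the difference of -6.36 meant at least 1.89-fold lower in E12 APs. Magt1, which takes part in magnesium transport and N-glycosylation, had 3.92, 5.04 and 5.58, against 6.90, 9.95 and 11.69, again without overlap, though 1 of its 2 probe sets went the other way. Eif5, a translation initiation factor gene, had 8.82, 3.69 and 9.47, against 6.10, 11.33 and 12.80. Its 5 probe sets had the same sign but unlike sizes, from -3.91 to -0.25. A probe set with both means over the level, 9.76 at E12 and 11.06 at E11, differed by only -1.31. Fzd3, a Wnt and planar polarity receptor gene, had 11.25, 4.86 and 11.64, against 8.25, 12.45 and 13.29, so only cell_105M lay below the E11 range. Gmnn (geminin), which blocks relicensing of replication origins, had 9.75, 10.35 and 3.57, against 8.14, 11.77 and 13.05. Strbp, Tex10, Txndc17, Pcnp, Fbxo21, Jpt2, Rap1b, Nae1, Ccp110 and Kpna3 were also among the 15 largest, with differences of -5.71 to -3.04. Of the 6 Strbp probe sets, 4 went the same way. Akirin2, Magt1, Tex10, Txndc17, Pcnp, Eif5, Rap1b, Mrpl22, G3bp2 and Fzd3 were the 10 with NICD/p18 and neurosphere APs nearer to E11. Nearer can be by little, since the NICD/p18 mean of Eif5, 9.37, lay almost midway between 11.24 at E11 and 7.33 at E12.

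**Figure D5:**
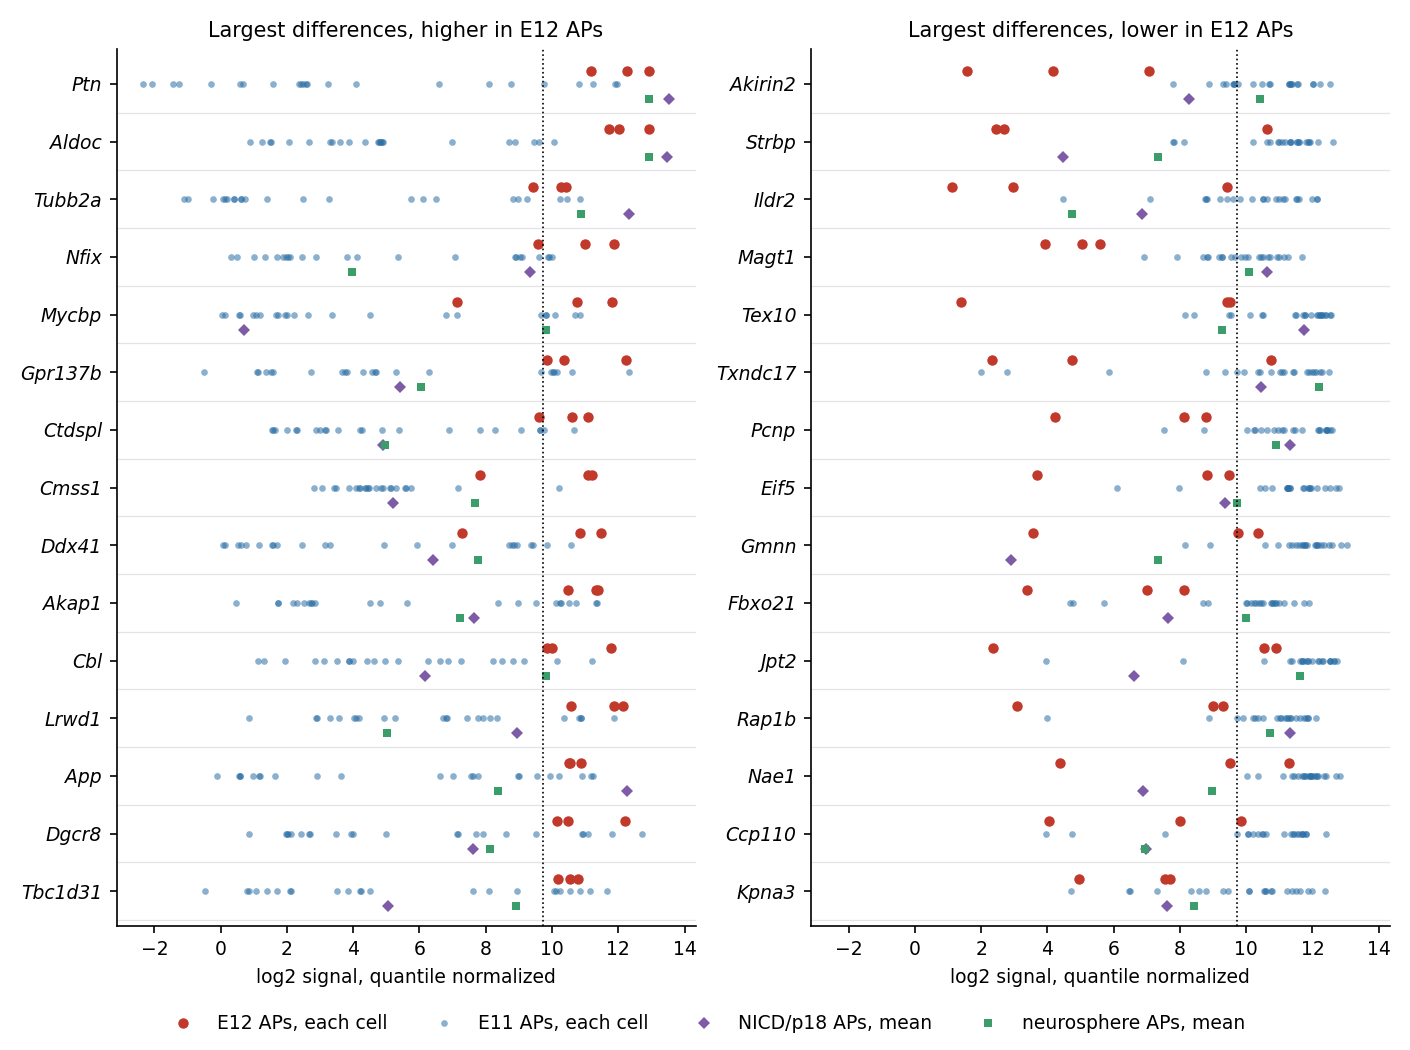
Log2 level of the 15 genes with the largest differences in each direction; in each row the 3 E12 APs lie above the 23 E11 APs, and the means of NICD/p18 and neurosphere APs below them, with the 20-copy level dotted. Akirin2 and Magt1 have every E12 cell below every E11 cell, while most other genes overlap.

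Genes whose E12 and E11 cells did not overlap numbered 16 upward (0.148%) and 10 downward (0.0927%) of 10789, and 7 and 2 of these were also called. Beside Aldoc, the called ones upward were the DNA repair genes Xrcc1 and Ercc2, and Mea1, Opa3, Tmed9 and Plekhj1. Xrcc1 had 11.04, 11.37 and 11.11 in the E12 cells, against 2.51, 8.78 and 10.96 in the E11 APs, and Ercc2 had 9.51, 10.59 and 10.65, against 1.80, 5.16 and 9.33. Phax, an adaptor for export of small nuclear RNAs, had the largest difference downward, with -0.18, 2.0 and 0.22 against 2.66, 10.14 and 11.40. Its E11 mean of 8.53 was under the level, so it was not called.

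Gene lists by role were then read against the 0.07 median of all genes and the 3.43% and 0.751% called. Of all 10789 genes, 5650 had the higher mean in E12 APs and 5139 the lower. Of 22 AP genes, 17 had the higher mean in E12 APs (median 0.41), and Aldoc, Fabp7, Nes, Sox9 and Ttyh1 were called higher. Ttyh1, Sox2, Pax6 and Mki67 (Ki67) had been used to select the E12 cells, and each of them is among the 17. Nes, an intermediate filament gene of neural progenitors, had 10.52, 9.16 and 11.66, against 2.98, 8.10 and 11.66. Sox9, a factor that maintains radial glia, had 10.13, 9.65 and 10.03, against 1.45, 8.26 and 11.34. With the deposited signals centred on their median the list had a median of -0.14 beside -0.34 for all genes. Of the 4 NFI genes all had the higher mean (median 1.29), and 1 was called. On its brightest probe set Nfib had 12.38, 11.86 and 9.32, against 3.88, 11.58 and 12.42, a difference of 0.51, while a dimmer probe set on the late list had 10.74, 10.98 and 10.40, against -1.65, 8.33 and 11.62, and was called. Nfia had 3.90, 11.82 and 11.60, against 1.44, 10.59 and 12.32, with cell_103L low.

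Of 23 Notch pathway genes, 12 had the higher mean in E12 APs (median 0.22) and 1 was called. Nrarp, a target of Notch that dampens it, had 12.30, 10.78 and 11.81, against 4.55, 9.49 and 12.04, at least 3.76-fold higher. The receptor Notch1 had 10.45, 11.61 and 9.75, against 3.38, 9.83 and 12.33, at least 1.85-fold higher but not called. Notch2 had 4.82, 10.20 and 11.15, against -1.88, 3.85 and 11.33. The effectors split by cell, with Hes5 at 8.81, 5.51 and 11.42, against 1.56, 7.68 and 12.14, and Hes1 at 4.89, 4.43 and 10.23, against 1.04, 7.79 and 10.77. Thus cell_109B alone was over the level for both Hes genes. The related gene Hey1 was instead highest in cell_103L, with 12.31, 9.60 and 11.36, against 4.62, 11.53 and 12.68. Hey2 was over the level in cell_105M alone, with 2.46, 9.85 and 0.14. The ligand Dll1 was under the level in all E12 cells and over it in 4 of 23 E11 cells.

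Of 14 cortical patterning factors, 10 had the lower mean in E12 APs (median -0.64) and none was called. Lhx2, a selector of cortical identity, had 12.66, 12.96 and 12.55, against 12.13, 12.96 and 13.19, and Emx2 had 11.76, 7.32 and 10.88, against 6.69, 11.45 and 12.43. Of 17 glycolytic genes, 15 had the lower mean in E12 APs (median -0.60), with Aldoc the 1 called and in the other direction. Aldoa, the widely expressed aldolase, had 8.30 to 11.09 in the E12 cells on its brightest probe set, against 9.49 to 12.49 in E11 APs (median 11.65), and was 3.36-fold lower. The difference of Aldoa was -0.20 as deposited, -1.35 after lys scaling and -2.33 centred, below 0 under each, while that of Aldoc was above 0 under each. Pgk1 had 12.61, 12.60 and 12.32, against 11.84, 13.21 and 13.64, a difference of -0.63, and Gapdh had 13.51, 13.50 and 13.43, against 13.29, 13.54 and 13.68. Of 11 hypoxia response genes, 8 had the lower mean (median -1.12). Hif1a, the oxygen-sensing factor, and Kdm3a, a demethylase it induces, were called lower, but without cell_103L the difference of Kdm3a was 0.18. Of 22 respiratory chain genes, 18 had the higher mean (median 0.44) and none was called. Under the deposited signals, where all genes had a median of 1.78, the medians of the glycolytic, hypoxia and patterning lists were 1.07, 0.46 and 0.99, and that of the respiratory list was 1.84. Centred on the array median, the respiratory list had -0.29 beside -0.34 for all genes.

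Cell cycle genes gave few calls, but so did all genes, at 3.43% higher and 0.751% lower. In the short lists here such counts are no result about these genes. The E12 cells had also been selected as Ki67+. Of 28 G2/M genes, 17 had the higher mean in E12 APs (median 0.36) and none was called. Of 27 G1/S and replication genes, 17 had the higher mean (median 0.50). Only the replicative helicase gene Mcm6 was called, and lower, with 10.13, 11.20 and 6.90 against 5.40, 12.31 and 13.22. Among 28 ribosome biogenesis genes (median -0.01), Ncl and Pes1 were called higher and Ddx21 and Rrs1 lower. Neurog2, a proneural factor and the 1 of 20 IP genes called, had 9.45, 12.03 and 8.80, against 1.06, 7.41 and 12.98. Jun, an immediate-early gene, had 9.16, 11.75 and 9.77, against 0.61, 4.45 and 11.69, and was the 1 of 14 such genes called.

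The likeness among the 3 E12 cells lay within that among E11 APs. Each had 2792 to 2813 genes over the level, against 2710 to 2856 in E11 APs, a count that quantile normalization largely fixes. In all 3 cells 1198 genes were over it and in none 6107, and 687 to 764 genes were over it in 1 E12 cell alone. Across the 10789 genes, which are not independent replicates, the correlation of log2 levels was 0.56 to 0.61 between E12 cells, and had medians of 0.53 to 0.55 between an E12 cell and the E11 APs and 0.53 among E11 APs (0.43 to 0.62).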

How the data were processed

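Single-cell cDNA had been amplified with spiked RNAs, 1000 copies of lys and 20 of phe per cell among them, and hybridized to GeneChip Mouse Genome 430 2.0 arrays. The authors processed the images with MAS5 and deposited a linear signal intensity for 45101 probe sets per array, with no quantile normalization. Here all 68 arrays were quantile normalized and log2 was taken without a pseudocount (Python 3.11.15, numpy 2.4.6, pandas 2.3.3, matplotlib 3.10.9). The 20-copy level is the median phe signal over the arrays. Probe sets that reached it on at least 1 array were kept (20721), 17979 of which carry 1 symbol in the platform annotation, and each of 10789 genes is read from its brightest probe set. Of all probe sets 34958 had 1 symbol, 932 several and 9211 were not in that table. The procedure was tested on simulated data, where increases of genes that were already bright came out smaller after quantile normalization than simulated. The number of cells limits the precision, and no test was possible with 1 sample per stage.

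Genes named were the 15 with the largest differences in each direction among those called with all 3 E12 cells on that side of the E11 median, the 10 so ranked with both other AP groups nearer to E11, the 18 temporal-axis genes, and members of lists described. Phax, Xrcc1 and Ercc2 were named after their values were seen. Members and lists were chosen with earlier results of these data known. Columns of other samples numbered 0. Alternatives in scaling, low signals, filter, cells, summary and probe sets were computed.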

Additional observations from a re-analysis of the deposited data

How the results depend on the processing

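The counts of called genes were 370 higher and 81 lower and depended most on scaling and on how signals under the 20-copy level were treated. They were 2014 and 15 in the signals as deposited (median of all genes 1.78, 99.3% of calls higher against 82.0% after quantile normalization), 669 after scaling to the lys spike (median 0.63), and 136 and 140 with each array centred on its median (median -0.34, 49.3% higher). They were 2 and 0 with signals under the level set to it, 588 and 168 with the level halved, 155 and 33 with it doubled, and 227 and 47 with the mean over all probe sets of a gene. All 30 E11 cells gave 44 lower and medians over cells gave 222 lower. Leaving out 1 E12 cell gave 588 to 610 higher and 90 to 117 lower. The difference in temporal score, 7.59, was 9.56 with quantile normalization over the 26 cells, 9.41 with the filter over these cells, 1.18 with the floor, and 5.37 to 9.42 without 1 E12 cell. The late list's median, 1.64, was 3.36 as deposited, 2.21 after lys scaling, 1.23 centred, 0 with the floor and 1.17 to 2.09 without 1 E12 cell. The early list's median, -1.44, was 0.11 as deposited, -0.31 with the floor, -0.43 with all E11 cells and -1.69 to -0.77 without 1 E12 cell. The cause of these shifts was not tested. Of 965 alternative values for the 54 genes named by rule, 862 moved by less than the SD between E11 APs and 0 changed sign after a call. A change of level or filter alone cannot move a gene's value unless its probe set changes. Many of these genes were also picked for large differences, so the counts are no evidence of stability. Among all genes called, up to 10 changed sign in a setting. As deposited, 51 of 54 list medians moved by at least the SD between E11 APs. Other alternatives were added after seeing the data. Without the E11 APs 30L and 45B, of lowest deposited signal, 365 genes were higher and 94 lower, and without 42P 371 and 88. No paired analysis was possible because the labels give the 2 stages no shared replicate numbers.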
